A study of Mus musculus with 8 samples.

Results

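The genes described here are 8 markers of the two-cell-like state of mouse embryonic stem cells (mESCs): Zscan4c, Zscan4d, Zscan4f, Tcstv1, Tcstv3, Zfp352, Tmem92 and Sp110. They were chosen by symbol, with earlier results of these data known, and all 8 were found among the 23420 gene rows of the count tables and among the 19424 rows with at least 1 count in any library. RNA-seq had been performed on mESCs that carry the importin gene Ipo13 (IPO13+/+) and on mESCs in which it was knocked out (IPO13-/-), to find genes that depend on this bidirectional nuclear transport receptor during oxidative stress. Each genotype was either left without treatment or given 125 µM H2O2 over 1 h, with a recovery of 2 h. This gives 4 groups of 2 libraries: IPO13+/+ untreated, IPO13+/+ with H2O2, IPO13-/- untreated and IPO13-/- with H2O2. Both genotypes were lines derived from blastocysts of a 129 and C57BL/6 background, kept without feeder cells on gelatin with LIF. Whether each genotype is 1 clone, and whether the 2 libraries of a group came from separate cultures, is not given in the sources used here, so differences between genotypes and between lines cannot be told apart and p-values measure only the spread between these libraries.

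Cultures of mESCs hold a small and changing set of cells that switch on genes otherwise used by the embryo at the two-cell stage, when its own genome is first read. These two-cell-like cells express the Zscan4 and Tcstv gene families and transcripts driven by endogenous retroviruses, and the transcription factor Dux is a known activator of this programme, while several chromatin repressors hold it down. Zscan4 genes code for SCAN domain zinc finger proteins known for their part in telomere maintenance and genome stability, and Tcstv1 and Tcstv3 code for small proteins that are also tied to telomeres. Zfp352 codes for a further zinc finger protein of the early embryo, Tmem92 for a membrane protein used as a marker of the state, and Sp110 for a nuclear body protein of the SP100 family that is otherwise known as an interferon-induced gene. The RNA here came from whole cultures, so more cells in the state and more RNA per cell cannot be told apart.

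The Zscan4 genes lie side by side on chromosome 7 and resemble each other so closely that reads can fit several of them. In the GRCm38 build, GENCODE M21 places Zscan4c at chr7:11005745-11010547 on the plus strand, Zscan4d at chr7:11161374-11166159 on the minus strand and Zscan4f at chr7:11397915-11402318 on the plus strand. The 250 bases before the transcription start of each, from RefSeq (GRCm38.p6), are printed 5′ to 3′ on the strand of the gene to show how near the copies are to each other. Capitals mark the bases at which a copy differs from another of the 3 when they are laid over each other without gaps.
Zscan4c, chr7:11005495-11005744, plus strand: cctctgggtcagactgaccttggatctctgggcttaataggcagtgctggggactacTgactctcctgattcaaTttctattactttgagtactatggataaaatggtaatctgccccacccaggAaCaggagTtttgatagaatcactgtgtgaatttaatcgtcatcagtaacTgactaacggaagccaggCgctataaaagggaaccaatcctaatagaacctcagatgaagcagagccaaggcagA
Zscan4d, chr7:11166149-11166398, minus strand: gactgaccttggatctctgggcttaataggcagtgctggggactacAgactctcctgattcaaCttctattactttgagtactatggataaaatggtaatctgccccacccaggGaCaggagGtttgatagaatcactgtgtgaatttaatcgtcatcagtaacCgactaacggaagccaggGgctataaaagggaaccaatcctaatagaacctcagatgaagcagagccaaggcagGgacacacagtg
Zscan4f, chr7:11397665-11397914, plus strand: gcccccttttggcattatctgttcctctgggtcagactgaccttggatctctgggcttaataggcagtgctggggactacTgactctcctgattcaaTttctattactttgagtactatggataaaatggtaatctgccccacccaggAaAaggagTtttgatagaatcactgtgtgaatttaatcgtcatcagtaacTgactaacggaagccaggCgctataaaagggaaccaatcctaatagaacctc

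The upstream sequences of Zscan4c and Zscan4f differed at 1 of 227 bases. Zscan4d differed from Zscan4c at 7 of 239 bases and from Zscan4f at 7 of 216. All 3 held 1 TATAAA, the TATA box of many regulated promoters, which was found on either strand in 12.4% of the 32851 upstream sequences of the same length in the RefSeq table. It overlapped with none of the capitals. A match is a description of the letters and not of binding.

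Zfp352, at chr4:90218820-90225702 on the plus strand, and Sp110, at chr1:85576899-85598817 on the minus strand, have upstream sequences of another kind. RefSeq lists 2 starts for Sp110, and the lower of them in the genome lies beside the upstream end of the GENCODE gene. They are printed because Zfp352 and the farther Sp110 start share a repeated word, AACACACCTTTAATC, which was noticed in these sequences and then searched for. Capitals mark that word and, before the nearer Sp110 start, GGGCGG, the GC box bound by SP1-type factors.
Zfp352, chr4:90218570-90218819, plus strand: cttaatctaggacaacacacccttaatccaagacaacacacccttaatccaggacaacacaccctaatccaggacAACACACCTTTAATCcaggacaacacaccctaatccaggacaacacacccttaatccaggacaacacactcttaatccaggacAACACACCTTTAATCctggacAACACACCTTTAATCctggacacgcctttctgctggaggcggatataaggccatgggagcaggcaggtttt
Sp110, nearer start, chr1:85598811-85599060, minus strand: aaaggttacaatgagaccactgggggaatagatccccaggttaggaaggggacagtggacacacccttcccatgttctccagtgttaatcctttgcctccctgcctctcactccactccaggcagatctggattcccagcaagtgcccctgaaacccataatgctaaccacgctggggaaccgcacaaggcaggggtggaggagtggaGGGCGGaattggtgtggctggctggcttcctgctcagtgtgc
Sp110, farther start, chr1:85603892-85604141, minus strand: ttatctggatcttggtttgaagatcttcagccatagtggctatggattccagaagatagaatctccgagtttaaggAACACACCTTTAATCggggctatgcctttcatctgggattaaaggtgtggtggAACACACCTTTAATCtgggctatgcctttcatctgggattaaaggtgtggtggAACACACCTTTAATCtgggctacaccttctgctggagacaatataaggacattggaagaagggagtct

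The word AACACACCTTTAATC, the longest present at least 3 times in both, occurred 3 times before Zfp352 and 3 times before the farther Sp110 start, and on either strand in 23 of the 32851 upstream sequences, or 0.07%. GGGCGG was found once before the nearer Sp110 start and in 32.7% of all sequences, and in none of the other 5 printed here. CACCC, a core of the sites of KLF-type factors, occurred 5 times before Zfp352, 2 times before the nearer Sp110 start, once before each Zscan4 gene and not before the farther Sp110 start, with 52.0% of all sequences holding it, and it did not overlap with the longer word. No upstream sequence was found in the table for Tcstv1 (chr13:119893388-119894785, minus strand), Tcstv3 (chr13:120316878-120318178, plus strand) and Tmem92 (chr11:94777217-94782703, minus strand).

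Because the genes resemble each other, every stretch of 100 bases of 1 transcript per gene was looked up in the transcripts of all other genes. Of the stretches of Zscan4f, 89.5% occurred elsewhere, against 72.8% for Zscan4c and 29.6% for Zscan4d. The 3 further Zscan4 rows of the files lay at 84.1% for Zscan4e, 78.7% for Zscan4b and 39.1% for Zscan4a, which GENCODE lists as an unprocessed pseudogene. Sp110 shared 27.7% of its stretches, with 26.9% found in the gene model Gm16026, while Tcstv3 shared 7.8%, Tcstv1 4.1%, Zfp352 0.6% and Tmem92 none. How reads that fit several genes were counted is not given in the sources used here, so the split between Zscan4 rows and the level of Sp110 are uncertain, and Zscan4 counts are also given as a sum.

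**Figure D1:**
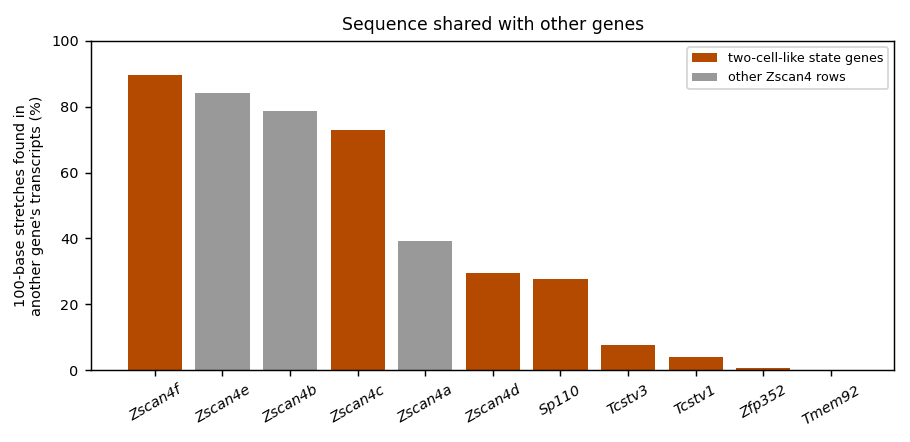
Share of the 100-base stretches of each gene's transcript that also occur in a transcript of another gene (vertical axis, percent), for the 8 two-cell-like state genes and the 3 further Zscan4 rows. Zscan4f (89.5%) and Zscan4c (72.8%) share most of their sequence, Tmem92 shares none.

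Each library held between 60397877 and 73789079 counts on genes, so 3 counts, the smallest number told from 0, correspond to 0.0407 to 0.0497 CPM, a count scaled to the library total. These limits cover counting error only. Ipo13 fell by 1.44 on the log2 scale in untreated IPO13-/- cells (SE 0.05, n = 2 per group, FDR = 9.5e-19, edgeR), with 4716 and 4786 counts in IPO13+/+ and 1965 and 1555 in IPO13-/-, so reads on the gene remained. The mESC markers Pou5f1 and Nanog stood at 632.6 and 214.1 CPM per kb of exon, above 99.8% and 99% of 18049 genes of known length. All 11 mESC markers listed summed to 8320 to 8500 CPM in untreated IPO13+/+ and 7190 to 7310 CPM in untreated IPO13-/- libraries. At an FDR below 0.05, 3 of the 11 were higher and 5 lower in untreated IPO13-/- cells (18.7% and 19.4% of all genes), and none of these changed 2-fold. Of 8 fibroblast genes, Col3a1, Lum and Postn had at most 3 counts in any library and Dcn at most 8. The others had more, with 6 to 25 counts for Pdgfrb, 9 to 26 for Col1a2, 71 to 324 for Col1a1 and 268 to 395 for Thy1. The summed level of the 8 lay between 6.44 and 9.44 CPM in all libraries.

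The 8 genes were all expressed at a low level. Averaged over the 8 libraries, expression per length was 0.258 CPM per kb for Zscan4c, 0.246 for Zscan4d and 0.183 for Zscan4f, which placed them above 34.9%, 34.6% and 32.2% of genes. Tmem92 followed at 0.108 CPM per kb, Zfp352 at 0.105, Tcstv1 at 0.0890, Tcstv3 at 0.0703 and Sp110 at 0.0289. The 3 Zscan4 genes ranked above the other 5 by mean CPM per kb in all 4 groups. In untreated IPO13+/+ cells the ranges of Zscan4d, Zscan4c and Zscan4f over their libraries overlapped from each gene to the next, as did those of Tcstv3 and Sp110 at the bottom of the order. In untreated IPO13-/- cells Zscan4d and Zscan4c overlapped, as did Zfp352, Tcstv3, Tcstv1 and Tmem92 each with the next, whereas Sp110 lay below the others. With H2O2, Zscan4f overlapped with the next gene in both genotypes, Tcstv1 in IPO13+/+ and Tmem92 in IPO13-/- cells.

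**Figure D2:**
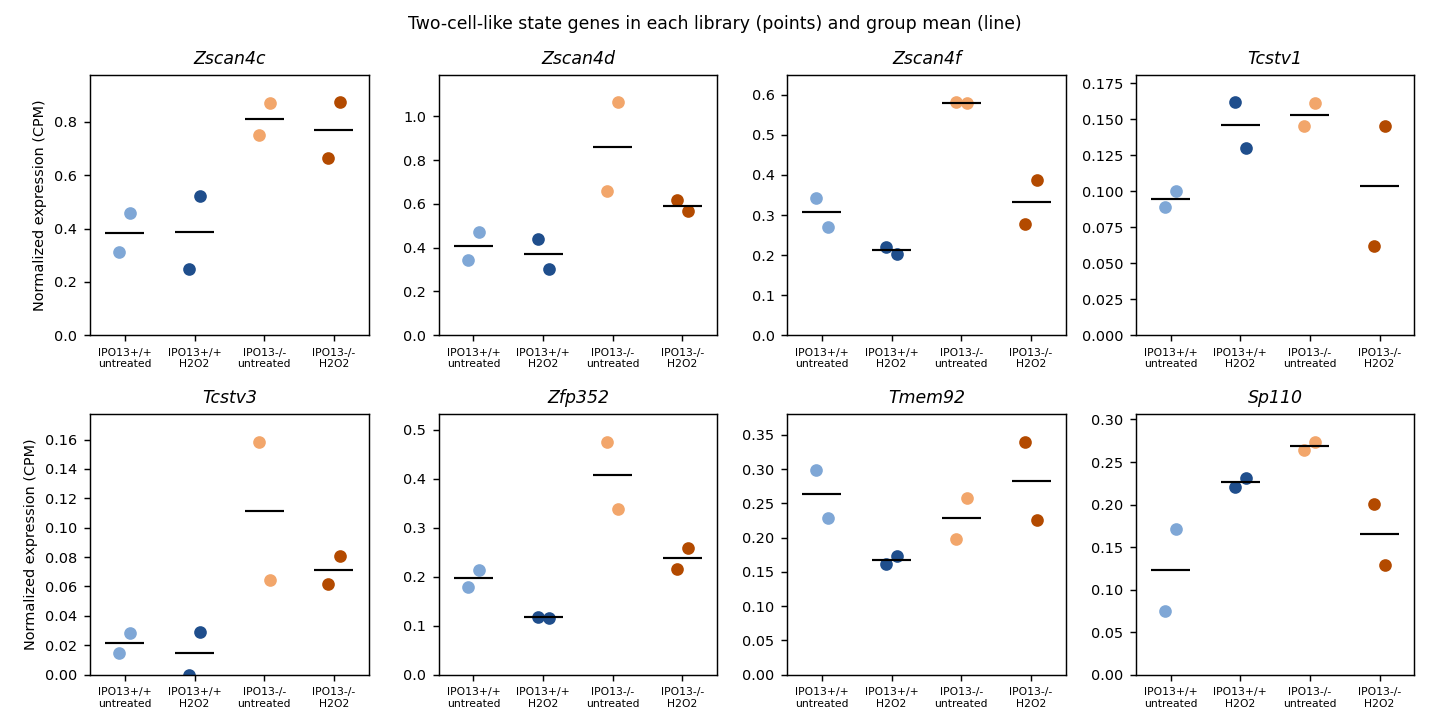
Normalized expression (CPM after TMM scaling, vertical axes from 0, each panel with its own scale) of the 8 genes in every library, by genotype and treatment. Points are libraries, 2 per group, and lines are group means. Both untreated IPO13-/- libraries lie above both untreated IPO13+/+ libraries for every gene but Tmem92.

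In untreated cells, most of the 8 genes were higher in IPO13-/- than in IPO13+/+ mESCs. Zscan4c, Zscan4d, Tcstv3, Zfp352 and Sp110 passed both limits of the study's definition of a differentially expressed gene, an FDR below 0.05 and a 2-fold change, in edgeR's quasi-likelihood test over all 19424 genes. These 5 of 8 compare with 2.86% of all genes tested that were called higher by the same rule. A 6th, Zscan4f, passed the FDR alone, as did 18.7% of all genes in the same direction. The median log2 fold change of the 8 was 1.05, against 0 for all genes. Both IPO13-/- libraries lay above both IPO13+/+ libraries for 7 of the 8 genes, a pattern shown by 30.7% of all genes. Genes with few counts were called more often: of the 2912 genes with a mean count in the range of these 8, between 3.75 and 39.2, 10.3% were called higher. Germline markers differed by genotype as well, with a summed level for 5 genes of 46.6 to 51.4 CPM in the IPO13+/+ and 74.5 to 78.0 CPM in the IPO13-/- libraries, and their part in these differences was not tested.

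The Zscan4 genes carried most of the counts. Without treatment, Zscan4c had 21 and 32 counts in IPO13+/+ and 57 and 54 in IPO13-/- libraries. Expressed as CPM, this was 0.385 ± 0.102 against 0.811 ± 0.0828 (SD, n = 2 each). The groups did not overlap, and the log2 fold change was 1.06 (SE 0.26, edgeR FDR = 0.0021). Zscan4d had 23 and 33 counts against 50 and 66, without overlap, a log2 fold change of 1.04 (SE 0.25, edgeR FDR = 0.0016). Zscan4f had 23 and 19 counts against 44 and 36, also without overlap, with a log2 fold change of 0.92 (SE 0.27, edgeR FDR = 0.0071) that stayed short of 2-fold. The sum of the 3 genes does not depend on how reads were split among them. It does not settle reads left out or counted on other genes. Of the stretches of Zscan4f, 74.9% also occur in Zscan4-ps2, which is not in the sum. The sum had 67 and 84 counts in IPO13+/+ and 151 and 156 in IPO13-/-, or 1.10 ± 0.142 and 2.25 ± 0.367 CPM (SD, n = 2 each). Its log2 fold change was 1.02 (SE 0.15, 95% interval 0.71 to 1.33, edgeR FDR = 3.3e-06). Leaving out the first untreated IPO13+/+ library brought it to 0.90 and leaving out the second untreated IPO13-/- library to 0.86, both short of 2-fold, while the FDR remained at or below 0.0022 without any single library. An exact permutation test of 2 libraries against 2 cannot give a p below 0.333, so the FDR rests on the spread shared across genes.

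The further Zscan4 rows pointed the same way. Zscan4a had 30 and 43 counts in untreated IPO13+/+ libraries against 72 and 49 in IPO13-/- (log2 fold change 0.72, SE 0.21, edgeR FDR = 0.0072). Zscan4e had 15 and 16 against 30 and 30 (0.94, SE 0.31, edgeR FDR = 0.018). Neither reached 2-fold, and Zscan4b, with 9 and 6 against 14 and 10, passed neither limit (edgeR FDR = 0.35). All 6 rows together gave 121 and 149 counts against 267 and 245, a log2 fold change of 0.92 (SE 0.11, edgeR FDR = 1.6e-07), again short of 2-fold. Within the family, the share of each row varied over the 8 libraries from 16.0% to 31.9% for Zscan4c, from 18.6% to 28.3% for Zscan4d and from 9.8% to 19.0% for Zscan4f.

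**Figure D3:**
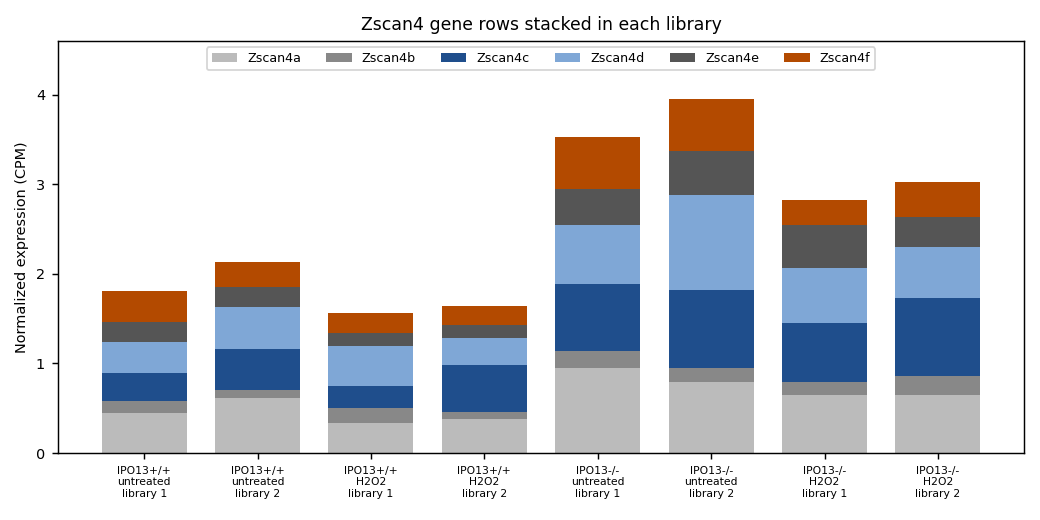
Normalized expression (CPM after TMM scaling, vertical axis from 0) of the 6 Zscan4 rows, stacked in each of the 8 libraries. The stacks of the 4 IPO13-/- libraries reach 2.83 to 3.95 CPM and those of the 4 IPO13+/+ libraries 1.56 to 2.13 CPM.

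The 2 Tcstv genes behaved unequally and had very few counts. Tcstv3 was at 1 and 2 counts in untreated IPO13+/+ cells, under the limit of 3, and at 12 and 4 in untreated IPO13-/- cells. The ratio of the summed counts per library total was 5.61, with an exact counting interval of 1.61 to 30.1, and edgeR gave a log2 fold change of 2.31 (SE 0.90, FDR = 0.044). The counting interval leaves out the spread between libraries. Tcstv1 had 6 and 7 counts against 11 and 10, which did not overlap, but passed neither limit (log2 fold change 0.67, SE 0.54, edgeR FDR = 0.37). The sum of both rose from 7 and 9 to 23 and 14 counts, a log2 fold change of 1.19 (SE 0.43, edgeR FDR = 0.032). The call for the sum was lost without the first untreated IPO13+/+ library (log2 fold change 1.05, FDR = 0.13), without the second (1.35, FDR = 0.065) and without the first untreated IPO13-/- library (0.96, FDR = 0.23). Without the same 3 libraries in turn, Tcstv3 alone gave 1.95 (FDR = 0.17), 2.81 (FDR = 0.082) and 1.50 (FDR = 0.42).

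In the same cells Zfp352 had 12 and 15 counts in IPO13+/+ and 36 and 21 in IPO13-/-, with no overlap and a log2 fold change of 1.06 (SE 0.33, edgeR FDR = 0.012). Sp110 had 5 and 12 counts against 20 and 17, with no overlap and a log2 fold change of 1.10 (SE 0.43, edgeR FDR = 0.044). Tmem92 was the exception among the 8 genes, with 20 and 16 counts in IPO13+/+ and 15 and 16 in IPO13-/- and a log2 fold change of -0.22 (95% interval -0.97 to 0.53, edgeR FDR = 0.69).

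The calls of single genes depended on single libraries. Their counts are small, and the part of this in the loss of calls was not tested. Leaving out the first untreated IPO13+/+ library brought the number of called genes from 5 to 1, the 1 being Zscan4f, which then passed 2-fold (log2 fold change 1.09). Without it, Zscan4c gave 0.82, Zscan4d 0.84, Zfp352 0.94 and Sp110 0.64 (edgeR FDR of 0.031, 0.023, 0.074 and 0.34). Leaving out the first untreated IPO13-/- library left 2 called genes, with Zfp352 at 0.80 (FDR = 0.17) and Sp110 at 1.15 (FDR = 0.14). Leaving out the second also left 2, with Zscan4c at 0.96 (FDR = 0.060), Zscan4d at 0.70 (FDR = 0.093) and Sp110 at 1.09 (FDR = 0.14). Sp110 also lost its call without either H2O2-treated IPO13+/+ library (FDR = 0.055 and 0.056), which enter its test only through the shared spread. DESeq2 called 2 of the 8 genes and limma-voom, the method of the study, called 5.

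**Figure D4:**
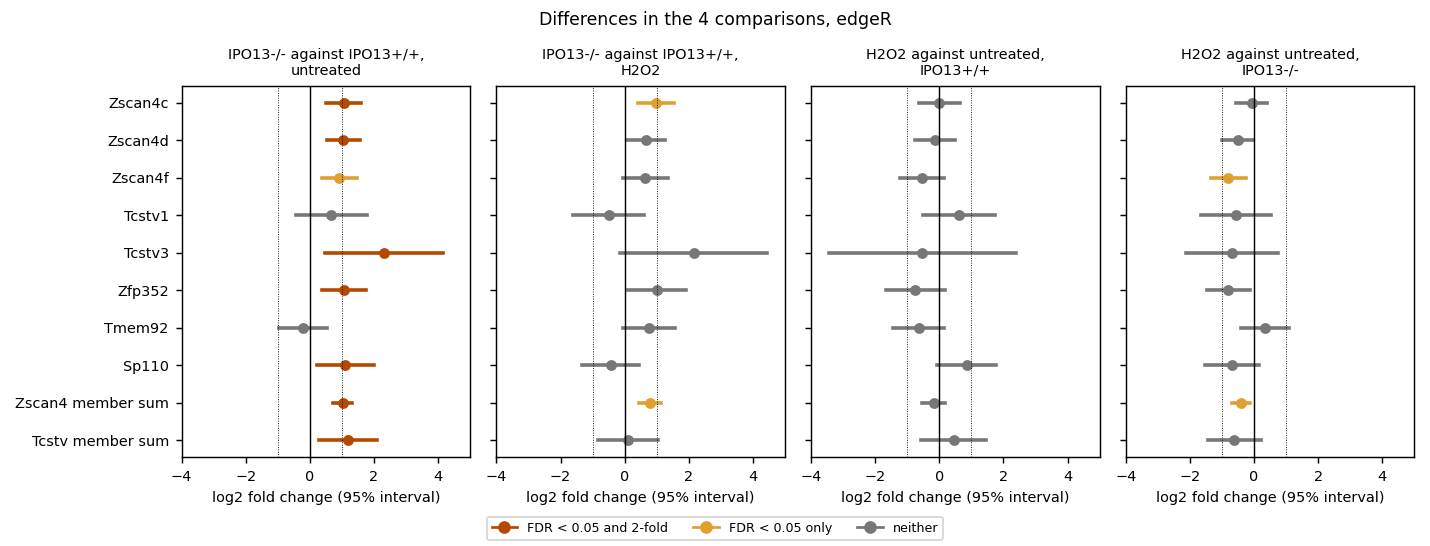
Log2 fold changes (horizontal axes) with 95% intervals from edgeR for the 8 genes and the sums of the 3 Zscan4 and the 2 Tcstv genes, in 4 comparisons. Colours show which limits were passed, and dotted lines mark a 2-fold change. In untreated cells 5 genes and both sums pass the FDR and the 2-fold limit, and no gene does so in the other 3 comparisons.

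After H2O2, the sum of the Zscan4 genes was again higher in IPO13-/- mESCs, by less than 2-fold, as was Zscan4c, whose FDR did not hold without either of 2 of the treated libraries. None of the 8 genes passed both limits in edgeR, where 4.56% of all genes were called in either direction. At an unadjusted p below 0.05 there were 3 (Zscan4c, Zscan4d and Zfp352), and limma-voom called 2 and DESeq2 0. At least 36.6% of all genes had such a p, as that share passed the FDR alone in either direction. The shares of all genes called by limma-voom and DESeq2 were not computed. The median log2 fold change of the 8 was 0.71, against 0 for all genes. Zscan4c had 17 and 36 counts in IPO13+/+ and 43 and 54 in IPO13-/-, without overlap, and passed the FDR alone (log2 fold change 0.98, SE 0.27, edgeR FDR = 0.0051), as did 19.1% of all genes in that direction. It lost the FDR without the first treated IPO13+/+ library (0.56, edgeR FDR = 0.17) or the second treated IPO13-/- library (0.78, edgeR FDR = 0.092), and passed 2-fold as well without the second treated IPO13+/+ library (1.61) or the first treated IPO13-/- library (1.17). Zscan4d had 30 and 21 counts against 40 and 35 (0.67, SE 0.29, edgeR FDR = 0.071), and Zscan4f 15 and 14 against 18 and 24 (0.65, SE 0.34, edgeR FDR = 0.15). Their sum had 62 and 71 counts against 101 and 113, and its log2 fold change of 0.80 (SE 0.17, 95% interval 0.46 to 1.14) passed the FDR alone (edgeR FDR = 0.00031). That sum's FDR was at most 0.012 when any single library was left out.

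Among the other Zscan4 rows, Zscan4e passed both limits in H2O2-treated cells, with 10 and 10 counts in IPO13+/+ and 31 and 21 in IPO13-/- (log2 fold change 1.48, SE 0.36, edgeR FDR = 0.0015). Zscan4a, with 23 and 26 counts against 42 and 40, passed the FDR alone (0.85, SE 0.25, edgeR FDR = 0.0080). The sum of all 6 rows stood at 106 and 113 counts against 183 and 187, a log2 fold change of 0.87 (SE 0.12, edgeR FDR = 2.1e-06), beside 0.92 in untreated cells. These 2 comparisons share no library, but they contrast the same genotypes and take their spread from 1 fit of all 8 libraries. Genotype and line cannot be told apart in either.

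Of the remaining genes in treated cells, Zfp352 had 8 and 8 counts in IPO13+/+ and 14 and 16 in IPO13-/- (log2 fold change 1.01, SE 0.44, edgeR FDR = 0.073), and Tmem92 had 11 and 12 against 22 and 14 (0.75, SE 0.39, edgeR FDR = 0.14). Tcstv3 had 0 and 2 counts against 4 and 5, a ratio of summed counts per library total of 4.91 with an exact counting interval of 1.02 to 46.7 (edgeR FDR = 0.14). That interval leaves out the spread between libraries, which the edgeR test takes in. Tcstv1 had 11 and 9 against 4 and 9, and the Tcstv sum, with 11 and 11 against 8 and 14, overlapped between genotypes (log2 fold change 0.11, 95% interval -0.82 to 1.05). Sp110 was the only gene of the 8 with both IPO13-/- libraries below both IPO13+/+ libraries, at 13 and 8 counts against 15 and 16 (-0.44, SE 0.43, edgeR FDR = 0.48). The groups did not overlap for 7 of the 8 genes, 6 higher and 1 lower in IPO13-/-, beside 33.3% of all genes higher and 31.7% lower.

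Within IPO13+/+ mESCs, none of the 8 genes passed the test with H2O2. In edgeR 0 of the 8 genes passed the limits, 0 had an unadjusted p below 0.05, and limma-voom and DESeq2 also called 0, where 2.90% of all genes were called. The median log2 fold change of the 8 was -0.33. The Zscan4 sum, at 67 and 84 counts without and 62 and 71 with H2O2, gave a log2 fold change of -0.18 (95% interval -0.55 to 0.18, edgeR FDR = 0.55). The sum over all 6 Zscan4 rows gave -0.30, with a 95% interval of -0.57 to -0.03 that left out 0, and missed the FDR limit (edgeR FDR = 0.099). Sp110 had the lowest FDR of the 8 genes, with 5 and 12 counts without and 15 and 16 with H2O2 (0.86, SE 0.45, edgeR FDR = 0.18). Zscan4f (-0.53), Zfp352 (-0.75) and Tmem92 (-0.64) had both treated libraries below both untreated ones, and Tcstv1 (0.61) and Sp110 had both above, so 3 lower and 2 higher of 8 compare with 30.6% lower and 25.2% higher of all genes.

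Within IPO13-/- mESCs, Zscan4f and the Zscan4 sum were lower after H2O2, by less than 2-fold. None of the 8 genes passed both limits, where 2.89% of all genes did, 3 had an unadjusted p below 0.05 (Zscan4d, Zscan4f and Zfp352), and limma-voom and DESeq2 called 0. Such a p was found for at least 29.4% of all genes, the share that passed the FDR alone in either direction. Zscan4f fell from 44 and 36 to 18 and 24 counts, without overlap, and passed the FDR alone (log2 fold change -0.80, SE 0.27, edgeR FDR = 0.024), as did 14.4% of all genes in that direction. The Zscan4 sum fell from 151 and 156 to 101 and 113 counts, a log2 fold change of -0.40 (SE 0.14, 95% interval -0.69 to -0.12, edgeR FDR = 0.030). Its FDR was above 0.05 with limma-voom (0.082), DESeq2 (0.18) and filterByExpr (0.052), and without the second untreated (0.39) or first treated (0.29) IPO13-/- library. The FDR of Zscan4f was above 0.05 with DESeq2 (0.18), without the first (0.12) or second (0.09) untreated library and without the first treated library (0.24). Zscan4d had 50 and 66 counts without and 40 and 35 with H2O2 (-0.51, edgeR FDR = 0.12), Zfp352 36 and 21 against 14 and 16 (-0.80, edgeR FDR = 0.068) and Sp110 20 and 17 against 13 and 8 (-0.69, edgeR FDR = 0.24). Zscan4c, at 57 and 54 against 43 and 54, gave -0.07 (95% interval -0.55 to 0.40). The sum over all 6 Zscan4 rows gave -0.35 (95% interval -0.56 to -0.13, edgeR FDR = 0.012), beside -0.30 in IPO13+/+ cells. Both treated libraries lay below both untreated ones for 4 of the 8 genes, beside 29.5% of all genes.

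Whether the response to H2O2 differed between the genotypes was tested as an interaction, the response in IPO13-/- minus that in IPO13+/+. None of the 8 genes passed an FDR below 0.05 in edgeR, where 2.71% of all genes did, 1 had an unadjusted p below 0.05, and limma-voom and DESeq2 called 0. That gene was Sp110, with a difference of -1.55 on the log2 scale (SE 0.61, 95% interval -2.80 to -0.30, edgeR FDR = 0.20). Its counts were 5 and 12 without and 15 and 16 with H2O2 in IPO13+/+ libraries, and 20 and 17 without and 13 and 8 with H2O2 in IPO13-/- libraries, and neither change passed the test. For the Zscan4 sum the difference was -0.22 (95% interval -0.69 to 0.25, edgeR FDR = 0.74), and for the Tcstv sum -1.07 (95% interval -2.38 to 0.23, edgeR FDR = 0.46). Over all 6 Zscan4 rows it was -0.05 (95% interval -0.39 to 0.30). Tcstv3, with an interval of -4.98 to 4.66, could not be judged at this depth.

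Other genes that the two-cell embryo and two-cell-like cells are known to express were followed through a list of 61, of which 54 had a row and 45 at least 1 count. In untreated cells 9 of the 45 were called higher and 2 lower in IPO13-/- (2.86% and 1.84% of all genes), with a median log2 fold change of 0.63. In treated cells 8 were called higher and 3 lower, with a median of 0.70 (2.58% and 1.98% of all genes). Many of the 45 had few counts, and genes of that kind were called more often. Of the 2912 genes with a mean count between 3.75 and 39.2, 10.3% were called higher in untreated and 8.48% in treated cells. Of the same genes, 136 were called lower in untreated and 178 in treated cells. Pramel3, a member of the PRAME-like family, showed the largest rise among those named, from 4 and 5 counts to 107 and 112 in untreated cells and from 2 and 4 to 72 and 64 in treated cells (log2 fold change 4.56 in both, edgeR FDR = 1.4e-12 and 7.4e-11). Gm8300 rose from 18 and 16 counts to 63 and 48 in untreated cells (1.69, edgeR FDR = 5.9e-06), Gm5662 from 38 and 53 to 110 and 101 (1.21, edgeR FDR = 3.1e-06), and Pramef17 from 8 and 9 to 32 and 26 (1.75, edgeR FDR = 0.00031). In treated cells the called genes included Trim43a, Usp17lb and Usp17la, with log2 fold changes of 2.50, 1.78 and 1.76. Shared sequence was not looked up for the listed genes. Whether rows of 1 family, such as Usp17la and Usp17lb, share reads was therefore not tested.

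Not all listed genes moved that way. Obox6, a homeobox gene of the oocyte and early embryo, fell from 276 and 286 counts to 24 and 22 in untreated cells (log2 fold change -3.61, edgeR FDR = 8.8e-15) and from 135 and 138 to 4 and 18 in treated cells (-3.50, edgeR FDR = 1.8e-11). BC080695 fell from 10 and 11 counts to 2 and 4 in untreated cells (-1.77, edgeR FDR = 0.032), and Tdpoz1 from 32 and 30 to 12 and 14 in treated cells (-1.13, edgeR FDR = 0.0051). The number called lower in untreated cells was 1 in place of 2 with DESeq2, without either untreated IPO13+/+ library or without the first untreated IPO13-/- library, and in treated cells it was 1 in place of 3 with DESeq2 or without the first treated IPO13-/- library. In IPO13+/+ cells given H2O2, 1 of the 45 passed both limits as higher (2.75% of all genes) and 2 as lower (0.149% of all genes), the latter being Obox6 (-1.04, edgeR FDR = 3.4e-07) and Usp17lb (-1.26, edgeR FDR = 0.040), and the call of Usp17lb was lost with limma-voom, with DESeq2 and in 7 of 8 fits that left out a library. In IPO13-/- cells 0 were called, 5 passed the FDR alone (29.4% of all genes), 7 had an unadjusted p below 0.05 and limma-voom and DESeq2 called 0.

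**Figure D5:**
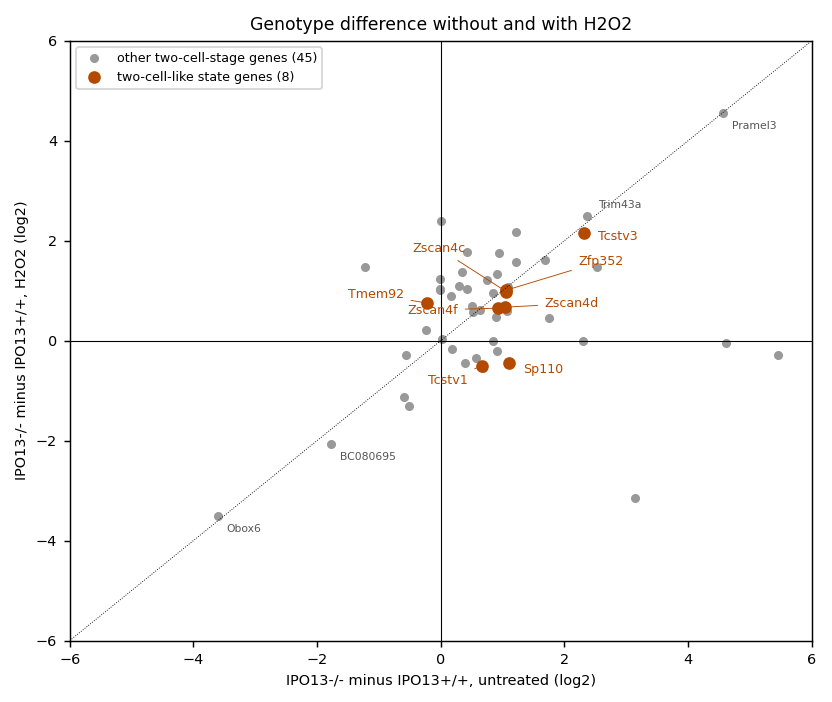
Log2 difference between IPO13-/- and IPO13+/+ in untreated cells (horizontal axis) and after H2O2 (vertical axis), for the 8 two-cell-like state genes and 45 other genes of the two-cell stage. The dotted line marks equal differences. Pramel3 lies at 4.56 on both axes and Obox6 at -3.61 and -3.50, and Tcstv1 and Sp110 are the members above 0 in untreated and below 0 in treated cells.

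None of the listed regulators of the state passed both limits with genotype or H2O2. Dux had 1 to 3 counts in every library, at or under the limit of 3, so a change within this range could not be detected. Of the 5 activators with counts, Dux among them, out of 6 listed, none was called by genotype in edgeR, limma-voom or DESeq2, and 1 in untreated and 2 in treated cells had an unadjusted p below 0.05. Of all genes, at least 38.2% in untreated and 36.6% in treated cells had such a p, as they passed the FDR alone. Dppa4, a chromatin factor upstream of Dux, was lower by 0.22 on the log2 scale in untreated IPO13-/- cells (log2 fold change -0.22, SE 0.04, edgeR FDR = 0.00015) and by 0.20 in treated ones (-0.20, SE 0.04, edgeR FDR = 0.00055). Tbx3, a T-box factor, was the 1 activator that passed the interaction, with a difference of 0.36 (SE 0.07, edgeR FDR = 0.0020). Of 32 repressors, none was called by any of the 3 tools in untreated cells, 22 had an unadjusted p below 0.05 (at least 38.2% of all genes), and 5 were higher and 16 lower in IPO13-/- at the FDR alone (18.7% and 19.4% of all genes). The histone deacetylase Hdac1 fell by 0.55 on the log2 scale (SE 0.04, edgeR FDR = 2.7e-11), the demethylase Kdm1a by 0.31 (SE 0.04), the chromatin remodeller Atrx by 0.30 (SE 0.05) and the methyltransferase Ehmt2 by 0.29 (SE 0.04), while Ehmt1, Rif1 and Ring1 were each higher by 0.23 (SE 0.05, 0.05 and 0.08) and E2f6 by 0.19 (SE 0.05). Hdac1 was also lower in treated cells (-0.49, SE 0.04, edgeR FDR = 3e-10). None of 10 telomere genes was called in any of the 5 comparisons by edgeR, limma-voom or DESeq2, and between 3 and 5 of them had an unadjusted p below 0.05. By genotype and by H2O2, the share of all genes that passed the FDR alone was 25.3% to 38.2%, and for the interaction 2.71%.

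Sp110 was set beside its own gene family and the interferon response. The 6 SP100-family rows in the files summed to at most 0.145 CPM in any library, and none of the 5 tested was called by edgeR, limma-voom or DESeq2 or had an unadjusted p below 0.05. Of 24 interferon-response genes tested, 2 were called higher with H2O2 in either genotype (2.75% of all genes in IPO13+/+ and 2.52% in IPO13-/- cells), among them Tap1, with log2 fold changes of 2.84 in IPO13+/+ and 2.98 in IPO13-/- cells. By genotype in untreated cells, Mx1 was higher (3.48, edgeR FDR = 0.00067, from 1 and 1 to 14 and 11 counts) and Gbp2 lower (-1.20, edgeR FDR = 0.016). These were 1 of 24 called in each direction, beside 2.86% of all genes higher and 1.84% lower. At the FDR alone 2 were higher and 5 lower (18.7% and 19.4% of all genes). Mx1 was also called higher in treated cells (2.20, edgeR FDR = 0.00084), where 2.58% of all genes were.

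Of the 5 germline markers, none was at 0 in any group, and 1 was called higher in untreated and 2 in treated IPO13-/- cells (2.86% and 2.58% of all genes), while Sycp3 was lower in untreated cells at the FDR alone (-0.48, SE 0.08). Tex101 rose from 11 and 18 counts to 45 and 64 in untreated cells (log2 fold change 1.90, edgeR FDR = 1.6e-05), and Dazl was higher by 1.08 in treated cells. The 7 trophectoderm genes summed to 98.5 to 116 CPM over all libraries, with Krt8 lower in untreated IPO13-/- cells (-1.25, edgeR FDR = 1.6e-12), and the 7 primitive endoderm genes to 15.9 to 24.1 CPM with none called by genotype in edgeR, limma-voom or DESeq2 and 4 at an unadjusted p below 0.05 in untreated cells (at least 38.2% of all genes). Of the 8 fibroblast genes, 5 had a log2 fold change above 0 in both genotype comparisons, with medians of 0.49 in untreated and 0.36 in treated cells. Col1a1 was the 1 called, and was lower in IPO13-/- (-1.07 in untreated and -1.41 in treated cells), beside 1.84% and 1.98% of all genes called lower. At the FDR alone, 2 of the 8 were lower and 0 higher in untreated cells (19.4% and 18.7% of all genes). In treated cells Thy1 (0.63) and Col1a2 (0.96) were higher at the FDR alone. The part of these other cell types in the values of the 8 genes was not tested.

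Among 13876 genes with a mean of at least 20 counts, those with profiles nearest to each family were sought by the distance between centred log2 CPM over the 8 libraries. Among the nearest to the Zscan4 sum were Hdac7 (distance 0.361), 6030419C18Rik (0.367), Lhx2 (0.390) and Spata22 (0.397), where the median gene lay at 1.45. Hdac7, a class IIa histone deacetylase, had 188 and 205 counts in untreated IPO13+/+ libraries, 151 and 169 with H2O2, 396 and 318 in untreated IPO13-/- libraries and 269 and 267 with H2O2. The nearest to the Tcstv sum were 4932416H05Rik (0.408), Ttc16, Cdx4, Ppm1e and Dagla (0.537). Nearest to Sp110 was Dlx3 (0.611), a homeobox gene, followed by D130020L05Rik, Zfp36l3, Amigo2 and C030034I22Rik (0.780). Dlx3 had 37 and 59 counts in untreated IPO13+/+ libraries, 80 and 79 with H2O2, 78 and 71 in untreated IPO13-/- libraries and 59 and 53 with H2O2, and its interaction was -1.02 (SE 0.26, edgeR FDR = 0.032). These distances were over 8 libraries in 4 groups, which the genes share, and are descriptions.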

How the data were processed

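RNA-seq was measured in 8 mESC libraries, 2 per group, and groups were taken from the sample labels. The authors aligned paired reads to mm10 and deposited raw counts for 23420 gene symbols per library, with CPM values that divide each count by the library total. The deposited CPM served only as a check of the counts. The submitters' processing notes name STAR 2.3.1, HTSeq and limma, without their settings. The 8 genes and all gene lists were chosen with earlier results of these data known. Of further lists, up to 4 called genes per direction and comparison were named by fold change, and regulators also at an FDR below 0.05.

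Rows with a count above 0 in some library (19424 genes, 60397877 to 73789079 counts per library, 3 counts taken as the smallest number told from 0) were TMM-scaled and fitted with edgeR 4.0.16 (quasi-likelihood, R 4.3.3) in 1 model of all 8 libraries, with Benjamini-Hochberg adjustment over all genes. Calls needed an FDR below 0.05 and a log2 fold change of at least 1 in size, or, for the interaction, the FDR alone. SEs were taken from the fold change and the F statistic. For the sums, the family rows were replaced by their sum. The fit was tested on simulated data. Alternatives were limma-voom (limma 3.58.1), DESeq2 1.42.0, other scalings and filters, a replicate block, fits of the compared groups only and each library left out. The FDR without the fold limit was added after seeing the data. Positions and exon lengths came from GENCODE M21, upstream sequences from RefSeq (GRCm38.p6). The 2 gene symbols that occur on more than 1 row were kept apart and are no members. Values of some genes that met the naming rules are not reported here.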

Additional observations from a re-analysis of the deposited data

Results flagged for a closer look

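Sp110 was marked for a closer look because its response to H2O2 went in opposite directions in the genotypes, with every treated library above every untreated one in IPO13+/+ (5 and 12 counts without, 15 and 16 with H2O2) and below in IPO13-/- (20 and 17 without, 13 and 8 with H2O2). The difference of the responses was -1.55 on the log2 scale (SE 0.61, n = 2 per group). Its unadjusted edgeR p was 0.017 and its FDR 0.20 over all genes, so it failed the correction. With 1 library left out in turn it ranged from -2.27 to -1.09 (FDR 0.083 to 0.51). Of the 100-base stretches of its transcript, 27.7% occur in another gene's transcripts, and the part of such reads in this difference was not tested.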

How the results depend on the processing

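The direction of the Zscan4 sum by genotype was kept under every alternative run, from 0.92 to 1.10 in untreated and 0.79 to 0.87 in treated cells, and when any library was left out (0.86 to 1.21 and 0.68 to 0.91). Summing all 6 Zscan4 rows gave 0.92 in untreated cells, below the 2-fold limit. The number of the 8 genes called in untreated cells was 5, with DESeq2 2, and 1 to 5 with a library left out. In treated cells it was 0, with limma-voom 2, and 0 to 1 with a library left out, as for H2O2 in IPO13-/- cells (0 to 1). The Tcstv sum in untreated cells kept its log2 fold change of 1.19 with DESeq2 but not its call (FDR = 0.16), and spanned 0.96 to 1.37 with a library left out. In treated cells the Tcstv sum spanned -0.37 to 0.49, turning below 0 without the second treated IPO13-/- library. Of the other two-cell-stage genes, DESeq2 called 1 lower in untreated and 1 in treated cells, and single libraries left out gave 1 to 2 and 1 to 3.

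Directions that turned belonged to differences that passed no test. With limma-voom, Zscan4c with H2O2 in IPO13+/+ was -0.07 and the Tcstv3 interaction 0.28. With single libraries left out, the ranges were -0.62 to 0.43 for Zscan4c, -0.42 to 0.12 for Zscan4d and -3.67 to 0.38 for Tcstv3 with H2O2 in IPO13+/+, -0.27 to 0.13 for Zscan4c and -1.12 to 0.14 for Tcstv3 with H2O2 in IPO13-/-, and -0.50 to 0.55 for Zscan4c, -1.07 to 2.98 for Tcstv3 and -0.26 to 0.22 for Zfp352 in the interaction. The cause was not tested. A library left out leaves a group of 1, assumed to vary like the others.

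The replicate numbers were not taken to pair libraries in the main fit. Over 11224 genes, deviations of same-numbered libraries correlated at 0.45, 0.25 and 0.21 for pairs of groups without treated IPO13+/+ cells. Pairs with that group gave -0.04, -0.04 and 0. These values do not decide whether the numbers pair libraries. With the replicate block the Zscan4 sum gave 1.03 in untreated cells (FDR = 1.3e-09), the Tcstv sum 1.19 (FDR = 0.031), and 5 of the 8 genes were called, and no call of the 8 genes or sums changed. Counts of 0 to 66 per library limit all single genes.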
